A study of Danio rerio with 4 samples.

Results

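The genes described here are 9 cardiac lineage transcription factors, gata4, gata5, gata6, nkx2.5, hand2, tbx20, tbx5a, mef2ca and mef2d. They were taken by name, as 9 of the 36351 genes counted in single-cell RNA sequencing of zebrafish ventricles, and each name belongs to a single gene. Ventricles of wild-type fish of the AB strain were pooled at 4 stages of coronary vessel growth: initiation (25 ventricles of fish of 10 mm body length and 1.5 months), establishment (18 ventricles, 14 mm, 2 months), expansion (12 ventricles, 18 mm, 2.5 months) and maturation (5 ventricles, 28 mm, 8 months). Each pool was dissociated with collagenase and TrypLE and gave a single 10x Genomics 3' library, so a stage has no replicate and pool, age and stage cannot be told apart. The fish carried no transgene or mutation named in the labels.

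In vertebrate embryos these factors are expressed in the mesoderm that forms the heart, bind DNA at enhancers of heart genes and act in partly shared complexes. GATA factors are zinc finger proteins needed for heart and endoderm formation. Nkx2.5 is a homeodomain protein that marks heart muscle precursors, Hand2 is a basic helix-loop-helix protein of heart muscle and epicardium, Tbx5 and Tbx20 are T-box proteins, and Mef2 proteins are MADS-box factors of muscle that are also made in many other tissues. The question was which cells of the growing ventricle hold the RNA of each factor, cardiomyocytes (CMs) or others, and how these levels differed between stages.

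Cell barcodes with at least 2500 UMIs (unique molecular identifiers, counted molecules) and 600 genes numbered 6932, 6663, 12296 and 7612 in stage order, and their median depth lay between 5215 and 13251.5 UMIs. Barcodes were put in classes by lists of marker genes that hold none of the 9 factors. From initiation to maturation there were 1030, 1965, 1801 and 851 CMs, 154, 184, 479 and 313 epicardial cells, 104, 175, 984 and 922 fibroblast-like cells, 260, 40, 260 and 29 smooth muscle cells and 1131, 1932, 6477 and 3862 endothelial cells (ECs). Red blood cells numbered 3751, 1524, 137 and 19, and barcodes that met the markers of more than 1 class, possible doublets, were left out (307, 519, 1402 and 763). Among these 5 solid-tissue classes each summed marker list was highest in the class named after it in all 4 libraries. The classes were gated by these same lists, so this is no independent check. Epicardial cells also held fibroblast-like markers at 3091 to 3882 counts per 1000000 UMIs (CPM). CM markers reached 430 to 9705 CPM in the other 4 solid-tissue classes, against 69555 to 124688 in CMs.

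A level in CPM counts a gene's UMIs summed over the barcodes of a class in a library for each 1000000 UMIs of that sum, with an exact Poisson 95% interval that covers counting error only. Levels of different genes are not compared, because 3' counting can capture genes unequally. As background, each factor was also measured in near-empty barcodes of under 100 UMIs, which hold free RNA, and in red blood cells.

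The 9 factors fell into different patterns over the classes. The RNA of nkx2.5 and tbx5a was above that of near-empty barcodes in CMs and, as counted, under it in the other 4 solid-tissue classes. In smooth muscle cells some counts were too few to place a level under free RNA. These were 0 UMIs of nkx2.5 and 1 of tbx5a in 29 barcodes at maturation, and 0 of tbx5a in 40 at establishment. Among the 5 solid-tissue classes tbx20 was highest in CMs or smooth muscle cells in each library. The level of hand2 was higher in epicardial cells than in ECs in each library, and in fibroblast-like cells in the first 3. UMIs of the GATA genes were counted in all 5 classes, with few of gata4 in some, and gata5 was lowest in CMs. In CMs gata5 at expansion and maturation and gata4 at expansion lay under or near free RNA. The genes mef2ca and mef2d were found in blood cell classes as well.

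**Figure D1:**
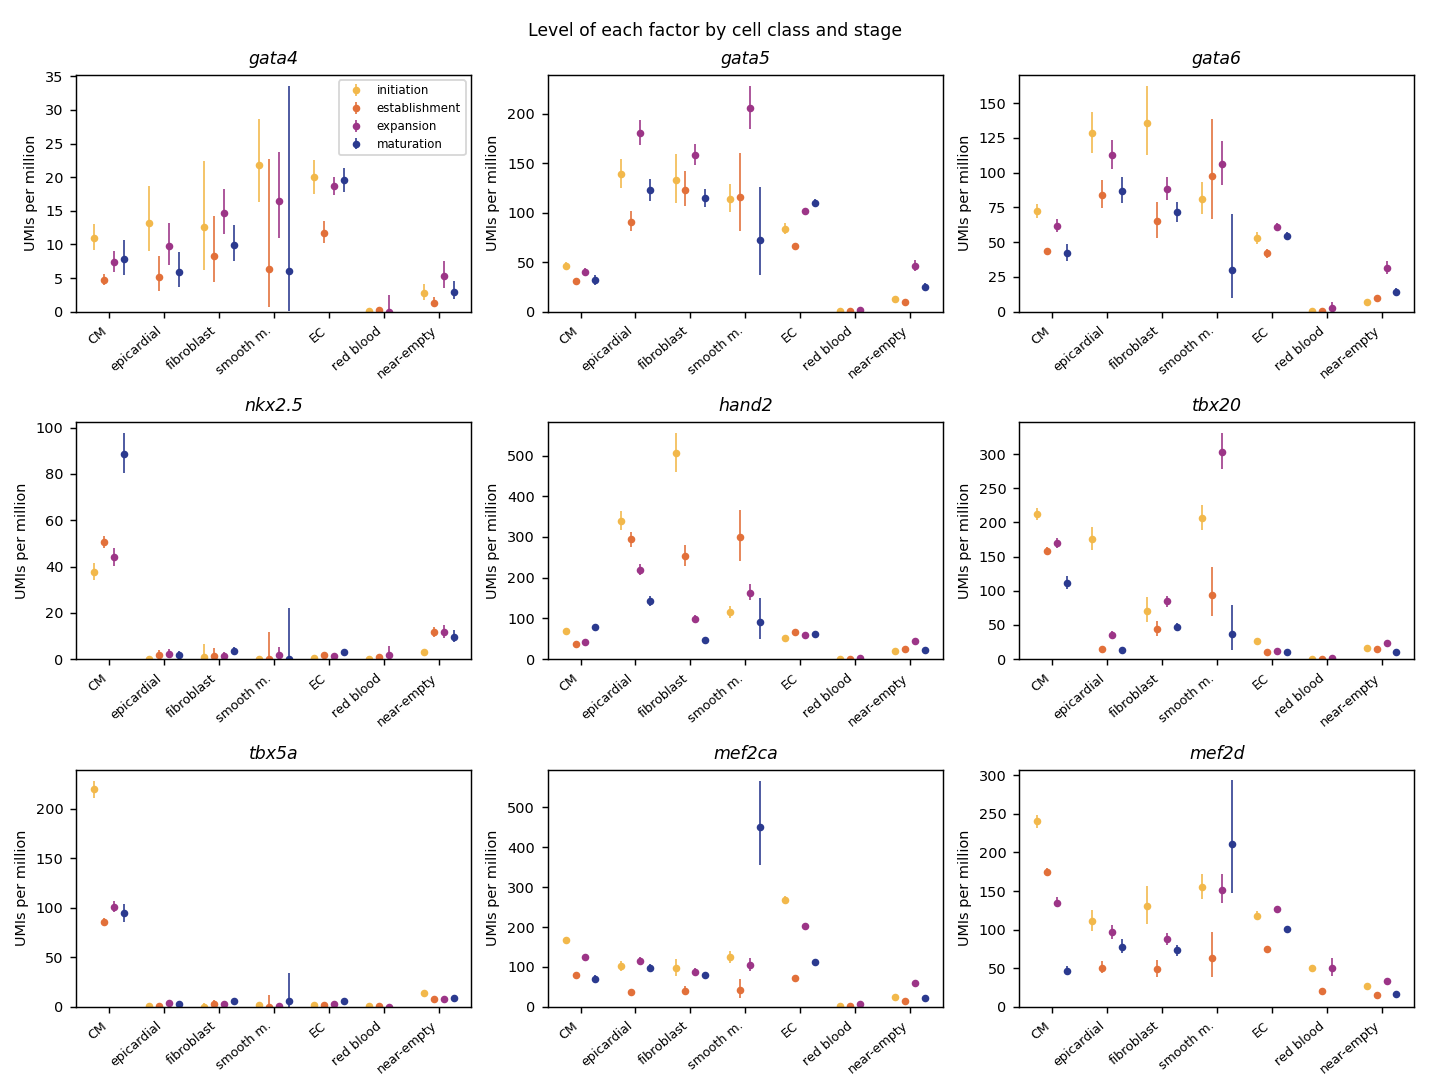
Level of each factor in CPM (y axis, linear and of its own range for each gene) in 6 cell classes and in near-empty barcodes (x axis). Each point is a library, coloured by stage, and bars are exact Poisson 95% intervals. For nkx2.5 and tbx5a the CM points stand apart from all others, while the highest hand2 point is that of fibroblast-like cells at initiation (505), where the maturation point is the lowest of the 4 (46.7).

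The T-box gene tbx5a (LL0000030056 in the files), whose human counterpart is mutated in a heart and hand syndrome, had 219.6 (211 to 228), 85.9 (82.5 to 89.4), 101 (95.3 to 107) and 94.3 (85.9 to 103) CPM in CMs. The level at initiation stood apart, above the other 3 stages. In ECs tbx5a had 1.69, 1.25, 2.79 and 5.29 CPM from initiation to maturation, all under the 14.0, 7.57, 7.43 and 9.03 of near-empty barcodes. It was also at 0.414 to 4.05 in epicardial cells and at 0 to 6.20 in fibroblast-like cells. With each barcode thinned to 2500 UMIs, 40.3%, 17.1%, 21.8% and 19.2% of CMs held a UMI of tbx5a, against 0.265%, 0.259%, 0.618% and 1.40% of ECs. Red blood cells, which should lack the gene, gave 0.0800% at initiation and 0.197% at establishment, with unthinned medians of 14947 and 16307.5 UMIs, against 10618 and 14634 in CMs. Without thinning, the CM shares were 76.7%, 54.6%, 43.1% and 34.8%.

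The homeobox gene nkx2.5 (LL0000020379), an early marker of the heart muscle lineage, had 37.8, 50.5, 44.0 and 88.8 CPM in CMs in stage order, with an interval of 80.6 to 97.5 at maturation. The maturation library was the highest and its interval did not meet that of any other stage. In ECs nkx2.5 had 0.403, 1.59, 1.40 and 3.06 CPM and in near-empty barcodes 3.09, 11.5, 11.7 and 9.77, so EC levels lay under the free RNA at each stage. No UMI of nkx2.5 was counted in epicardial or smooth muscle cells at initiation, which allows levels of up to 1.24 and 1.26 CPM (3 counts in each class). Of the thinned CMs 10.5%, 11.8%, 11.2% and 18.3% held a UMI (30.5%, 44.7%, 23.4% and 34.5% unthinned), against 0.0884%, 0.518%, 0.340% and 0.699% of ECs. Red blood cells gave 0.0267%, 0.328% and 1.46% from initiation to expansion.

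The T-box gene tbx20 (LL0000030048), which acts in chamber heart muscle, had 212, 159, 170.2 and 111 CPM in CMs from initiation to maturation, against 26.5, 10.2, 11.7 and 9.96 in ECs and 15.7, 15.3, 24.1 and 10.8 in near-empty barcodes. Smooth muscle cells, which were gated by contractile genes such as myh11a and tagln, had 206 (189 to 226), 94.4 (63.7 to 135), 303 (278 to 330.4) and 36.2 (13.3 to 78.7) in stage order, the last from 6 UMIs in 29 barcodes. The interval at initiation overlapped that of CMs of the same library, and the level at expansion was above it. CM markers in smooth muscle cells summed to 4716 and 6049 CPM in those libraries, against 69555 and 75739 in CMs, and nkx2.5 had 0 and 3 UMIs there. These sums were above those of ECs, epicardial and fibroblast-like cells, with 430 to 902 CPM at initiation and 2999 to 3784 at expansion. The part of CM RNA in the tbx20 values was not tested. Thinned shares of smooth muscle cells with tbx20 were 36.9% and 43.5% (63.8% and 60.8% unthinned), against 0.187% of red blood cells at initiation.

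Epicardial cells held tbx20 mainly at initiation. Their levels were 176 (159.6 to 193), 15.1 (11.2 to 20.0), 35.7 (30.2 to 41.9) and 13.5 (10.1 to 17.7) CPM. The initiation interval lay far above the other stages, and those of establishment and maturation overlapped those of near-empty barcodes. A UMI of tbx20 was found in 62 of the 154 epicardial barcodes at initiation, of which 1 held 87 of the 425 UMIs. With the top 5% of barcodes by UMIs left out the level was 152. With stricter marker limits it was 233. Fibroblast-like cells had 70.7, 43.7, 84.7 and 46.4 CPM of tbx20, higher at expansion than at establishment and maturation.

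The basic helix-loop-helix gene hand2 (LL0000011925) had its highest levels in fibroblast-like and epicardial cells at initiation. Fibroblast-like cells had 505 (459 to 554), 254 (229 to 279.9), 98.9 (90.5 to 108) and 46.7 (41.3 to 52.7) CPM, each stage below the one before with no overlap of intervals. Epicardial cells had 339 (316 to 363), 294 (276 to 313), 220.0 (206 to 235) and 143 (131 to 155), again lower at each stage. Of thinned fibroblast-like cells 43.3%, 34.9%, 13.6% and 8.46% held a UMI of hand2 (68.3%, 58.3%, 23.4% and 16.9% unthinned), and of epicardial cells 35.1%, 35.9%, 27.1% and 25.2%. Red blood cells gave 0.107% at initiation and 0.262% at establishment. Stricter marker limits lowered the fibroblast-like level at initiation to 285 CPM, against 256, 87.3 and 43.5 in the later libraries. The size of the step from initiation to establishment thus depended on these limits. The whole fibroblast-like marker list summed to 5264, 5463, 6825 and 6611 CPM in stage order, and the epicardial list in fibroblast-like cells to 984, 800, 785 and 634. The part of epicardial cells in the hand2 values was not tested. Smooth muscle cells had 115, 299, 164 and 90.4 CPM of hand2, CMs 70.1, 36.4, 41.0 and 79.1 and ECs 51.2, 66.6, 60.3 and 60.8. CM levels at initiation and maturation were above those of ECs of the same library, and those at establishment and expansion below. Barcodes that met no class had 272, 188, 157 and 49.6 CPM, so the classes do not hold all cells with hand2.

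The GATA genes had no class to themselves. The level of gata5 (LL0000011164), a factor of endoderm, heart muscle and endocardium in the zebrafish embryo, was 139, 91.1, 181 and 123 CPM in epicardial cells, 133, 123, 159 and 115 in fibroblast-like cells and 114, 116, 206 and 72.3 in smooth muscle cells. It was 46.0, 30.5, 40.1 and 32.0 in CMs and 84, 66.0, 102 and 109.8 in ECs, so CMs were the lowest of these 5 classes in each library. Near-empty barcodes had 13.1, 10.0, 46.2 and 24.7 CPM of gata5, and the CM level lay under this free RNA at expansion, and the CM interval overlapped that of free RNA at maturation. Red blood cells had 0.400 to 1.33 from initiation to expansion. Of thinned epicardial cells 29.9%, 15.8%, 31.5% and 25.6% held a UMI of gata5, against 8.74%, 6.26%, 8.83% and 7.52% of CMs and 16.5%, 15.5%, 20.6% and 21.8% of ECs, and of red blood cells 0.107% at initiation.

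The related gene gata6 (LL0000011165) had 72.3, 43.3, 61.8 and 42.2 CPM in CMs and 52.9, 41.9, 61.1 and 54.5 in ECs. CMs were higher than ECs at initiation, lower at maturation, and the intervals of both classes overlapped at establishment and expansion. Epicardial cells had 128, 84.2, 113 and 86.9 and fibroblast-like cells 136, 64.8, 88.4 and 71.4 CPM, above CMs of the same library at each stage.

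The counts of gata4 (LL0000011163), the partner of Nkx2.5 and Tbx5 in mammalian heart muscle, were low throughout. CMs had 11, 4.72, 7.35 and 7.79 CPM, from 130, 132, 90 and 38 UMIs, and ECs 20.0, 11.8, 18.7 and 19.6. The CM interval lay below the EC interval in each of the 4 libraries. Near-empty barcodes had 2.72, 1.33, 5.31 and 2.96 CPM, and at expansion the intervals of both overlapped. Of thinned CMs 2.33%, 1.53%, 1.33% and 2.35% held a UMI of gata4, against 5.48%, 3.47%, 4.45% and 4.51% of ECs. Of red blood cells 0% held one at initiation (the limit set by 3 counts is 0.0800%) and 0.197% at establishment. The epicardial, fibroblast-like and smooth muscle levels, between 5.15 and 21.9 CPM, rested on at most 75 UMIs each.

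The MADS-box gene mef2ca (LL0000018852) had 167, 80.7, 124 and 70.7 CPM in CMs, against 268 (259 to 278), 72.8 (68.9 to 76.9), 204 (199 to 208) and 112 (108 to 116) in ECs. ECs were highest at initiation and expansion, and CMs lay below ECs except at establishment. In epicardial and fibroblast-like cells it had 36.6 to 114 CPM. The establishment library was the lowest in both classes, as it was in ECs and smooth muscle cells. At maturation the level in smooth muscle cells was 452 (356 to 567), from 75 UMIs in 22 of 29 barcodes with at most 10 in any of them, and 304 with mixed barcodes kept. The earlier libraries had 124, 40.9 and 106. The pericyte marker list in these smooth muscle cells summed to 2497, 978, 2076 and 3002 CPM from initiation to maturation, and pericyte-like cells themselves had 158 (113 to 215) CPM of mef2ca at maturation. The part of pericyte-like cells in the maturation value was not tested. Thrombocytes, the nucleated platelets of fish, had 199.9 (116 to 320.0) at expansion and 224 (172 to 287) at maturation, from 17 and 62 UMIs. Red blood cells had 1.24, 0.912 and 7.32 in the 3 libraries with at least 20 such barcodes.

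Of the 9 genes, mef2d (LL0000018854) was the most widely found. Its CM levels were 240.2 (231 to 249), 175 (169.9 to 179.7), 135 (129 to 142) and 46.5 (40.7 to 53.0) CPM, lower at each stage with no overlap. ECs had 118, 74.3, 126 and 101. T and NK lymphocytes held 231 (155 to 332), 383 (272 to 524) and 437 (314 to 593) CPM in the last 3 libraries, from 26, 25 and 23 barcodes, and macrophages held 106 and 104 at establishment and expansion. Red blood cells had 50.4, 20.1 and 50.6 CPM from initiation to expansion, above the 26.9, 15.8 and 32.7 of near-empty barcodes. The other 8 factors had at most 7.32 CPM in red blood cells of these 3 libraries. In T and NK lymphocytes, gata4, gata6, nkx2.5 and hand2 had 0 UMIs in all 4 libraries together, which allows up to 7.36 CPM.

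Classes were then compared over the 4 libraries, each class against ECs of the same library, by edgeR's quasi-likelihood test on summed UMIs with library as a term. A gene was called where its Benjamini-Hochberg adjusted p over all genes tested was under 0.05 and its fold was at least 2. Libraries are here the replicates, and they differ in stage. All 9 factors passed the filter on low counts in each comparison.

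CMs were higher than ECs in nkx2.5, tbx5a and tbx20 and lower in gata4 and gata5. The log2 fold was 5.56 for tbx5a (edgeR adjusted p = 2.4e-05), with ratios of 129.8, 68.7, 36.1 and 17.8 from initiation to maturation. It was 5.22 for nkx2.5 (adjusted p = 1.1e-05), with ratios of 93.9, 31.7, 31.5 and 29.0, and 3.58 for tbx20 (adjusted p = 1.9e-05), with ratios of 8.02, 15.6, 14.5 and 11.2. The EC levels under these ratios lay below free RNA for nkx2.5 and tbx5a in all 4 libraries and for tbx20 in all but the initiation library, and the same EC levels enter the comparisons of the other classes. For gata4 the log2 fold was -1.21 (adjusted p = 0.0048) and for gata5 -1.27 (adjusted p = 0.0043), with ratios under 1 in 4 of 4 libraries. The CM level of gata5 lay under free RNA at expansion. The CM intervals overlapped those of free RNA for gata5 at maturation and for gata4 at expansion.

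For the remaining genes the fold did not pass. It was 0.04 for gata6, -0.15 for hand2, -0.48 for mef2ca and 0.33 for mef2d on the log2 scale (edgeR adjusted p of 0.92, 0.71, 0.17 and 0.51). The ratio of mef2d was 2.04, 2.35, 1.07 and 0.461 in stage order, over 1 in the first 3 libraries and under 1 at maturation. Of all genes tested, 14.4% were called higher in CMs and 45.3% lower, beside which 3 and 2 of the 9 factors stand.

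The median gene had a log2 fold of -0.95 in CMs over ECs. The 20 most abundant genes held 34.8% to 51.0% of CM UMIs, against 12.9% to 37.9% of EC UMIs. Relative to the median gene, the log2 folds were -0.26 for gata4, -0.33 for gata5, 0.98 for gata6, 0.80 for hand2, 0.47 for mef2ca and 1.28 for mef2d. With TMM normalization, which brings the median to -0.11, the log2 folds were -0.36 for gata4 and -0.42 for gata5 and no longer passed (edgeR adjusted p = 0.28 and 0.20), while mef2d came to 1.17 and passed (edgeR adjusted p = 0.018). The same scaling turned the directions of hand2 (0.70) and mef2ca (0.37), without a call. The calls for nkx2.5, tbx5a and tbx20 stood under all alternatives run, with log2 folds of at least 2.96.

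**Figure D2:**
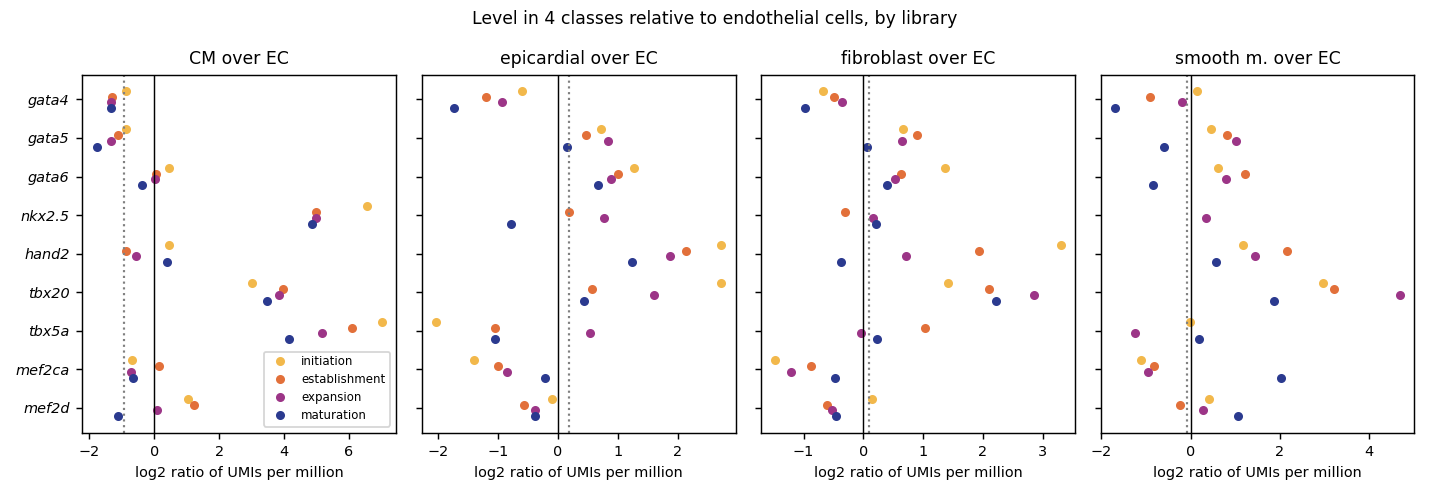
Level of each factor in CMs, epicardial, fibroblast-like and smooth muscle cells relative to ECs of the same library, as log2 ratio of CPM (x axis, 0 means equal). Each point is 1 library coloured by stage, pairs with under 10 UMIs together or with 0 UMIs in either class are not drawn, and the dotted line is the median log2 fold of all genes tested. In the CM panel nkx2.5, tbx5a and tbx20 lie at ratios of 8.02 or more in each library, and in the fibroblast-like panel the hand2 points run from 0.768 to 9.86 times the EC level.

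Epicardial cells were higher than ECs in hand2, with a log2 fold of 1.99 (edgeR adjusted p = 4.6e-04) and ratios of 6.62, 4.42, 3.65 and 2.35 from initiation to maturation, and in tbx20, with 1.36 (adjusted p = 0.027) and ratios of 6.64, 1.49, 3.04 and 1.36. They were lower in gata4, with -1.10 (adjusted p = 0.019). The tbx20 call was lost without the initiation library (log2 fold 0.89, adjusted p = 0.074), without the expansion library (1.25, adjusted p = 0.11) and with mixed barcodes kept (0.71, adjusted p = 0.28). The gata4 call was lost without the establishment, expansion or maturation library (log2 folds of -1.08, -1.17 and -0.89), and without a library term both calls were lost (tbx20 2.04, adjusted p = 0.054, and gata4 -1.05, adjusted p = 0.072). The log2 fold of gata6 was 0.96 and missed the fold limit although it was higher in 4 of 4 libraries (adjusted p = 0.013), and it passed without the maturation library (1.05). The log2 fold of mef2ca was -0.86, lower in 4 of 4 libraries (adjusted p = 0.035), and it passed by TMM (-1.04), by DESeq2 (-1.08) and without the maturation library (-1.07). Of all genes tested, 16.2% were called higher in epicardial cells and 9.99% lower, beside 2 and 1 of the 9 factors.

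Fibroblast-like cells were higher than ECs in tbx20, with a log2 fold of 2.17 (edgeR adjusted p = 1.6e-04) and ratios of 2.67, 4.29, 7.21 and 4.66, and lower in mef2ca, with -1.0 (adjusted p = 0.0039). The mef2ca fold lies at the limit and fell below it with log2 folds of -0.85 without the initiation library, -0.93 without the expansion library, -0.98 with at least 5000 UMIs and -0.90 with mixed barcodes kept. Without a library term its adjusted p was 0.11. For hand2 the ratios were 9.86, 3.81, 1.64 and 0.768 and the log2 fold of 1.38 did not pass (adjusted p = 0.073). Without the maturation library, the only one with a ratio under 1, the hand2 log2 fold was 1.97 and passed (adjusted p = 0.0055). It also passed with DESeq2 (1.17, adjusted p = 0.048), without a library term (1.91, adjusted p = 0.028) and with at least 5000 UMIs (1.50, adjusted p = 0.042). It passed without a filter too (adjusted p = 1.7e-09), where the fold of 1.38 was unchanged. There the genes entering the dispersion estimate and the adjustment differed. It did not pass by TMM, with totals without mitochondrial UMIs, with mixed barcodes kept or without the initiation, establishment or expansion library. Leaving out 1 library at a time gave log2 folds of 0.76 to 1.97. The background was 15.7% higher and 9.72% lower of all genes tested, beside 1 and 1 of the 9 factors.

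Smooth muscle cells were higher than ECs in tbx20, with a log2 fold of 3.29 (edgeR adjusted p = 7.3e-05) and ratios of 7.79, 9.28, 25.8 and 3.63, and in hand2, with 1.36 (adjusted p = 0.0079) and ratios of 2.25, 4.49, 2.71 and 1.49. The hand2 call was lost without the establishment library (log2 fold 1.09, adjusted p = 0.090). For mef2ca the ratios were 0.464, 0.562, 0.518 and 4.04, with the maturation library apart, and the fold did not pass (log2 fold -0.29, adjusted p = 0.76). Without the maturation library it was -0.98 (adjusted p = 0.0025), and it was -1.05 and passed (adjusted p = 0.0013) with barcodes of at least 5000 UMIs and 1000 genes, where the maturation class falls under 20 barcodes and drops out. Of all genes tested 10.4% were called higher and 11.6% lower in smooth muscle cells, beside 2 and 0 of the 9 factors. At an unadjusted p under 0.05 edgeR also gave 0 lower factors, and DESeq2 called 0.

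A list of 44 other regulators of heart development was counted beside the factors. Of the 31 tested in CMs against ECs, 6 were higher in CMs and 15 lower, with a median log2 fold of -0.90, close to that of all genes. The 4 with the largest rise were smyd1b, a muscle methyltransferase needed for sarcomere assembly (log2 fold 6.03), irx1a, an Iroquois homeobox gene (5.53), tbx5b, the paralog of tbx5a (5.04), and myocd, a coactivator of serum response factor (4.15). The 4 with the largest fall were irx5a (-7.03), the forkhead genes foxc1a (-6.71) and foxc1b (-4.90), and tead1a (-5.21), a DNA-binding partner of Yap, and the edgeR adjusted p of these 8 genes was at most 3.3e-05. Of this list, 6 of 30 were higher in epicardial cells than in ECs and 6 lower, 8 of 31 higher in fibroblast-like cells and 5 lower, and 11 of 30 higher in smooth muscle cells and 5 lower. The shares of all genes tested called higher and lower were 14.4% and 45.3% in CMs and 16.2% and 9.99% in epicardial cells. They were 15.7% and 9.72% in fibroblast-like cells and 10.4% and 11.6% in smooth muscle cells.

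Stages were compared as the ratio of the maturation to the initiation library within a class, with no test. A ratio was called where it was at least 2, or at most 0.5, and the Poisson intervals of both levels did not overlap. In CMs the median gene had a ratio of 0.535, while the summed CM markers were at 124688 CPM at maturation and 69555 at initiation.

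In CMs nkx2.5 was higher at maturation, with a ratio of 2.35 (2.05 to 2.69), and tbx5a at 0.429 (0.388 to 0.474), mef2ca at 0.423 (0.376 to 0.475) and mef2d at 0.194 (0.169 to 0.222) were lower. Among all genes 39.2% were called in either direction, near the share of the factors (4 of 9). By direction 1 of 9 was higher, beside 4.81% of all genes, and 3 of 9 lower, beside 5145 of 14964 genes. Set against the median gene, nkx2.5 stood 4.39-fold above it, hand2 2.11-fold above it and mef2d 2.76-fold below it, while tbx20, tbx5a, mef2ca and the GATA genes were at 0.790 to 1.32 times the median. With CMs of at least 5000 UMIs and 1000 genes, the ratio of mef2d was 0.293, and that of mef2ca 0.537, short of the limit of 0.5. With barcodes thinned to 2500 UMIs, the ratio of nkx2.5 was 1.82, short of 2.

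**Figure D3:**
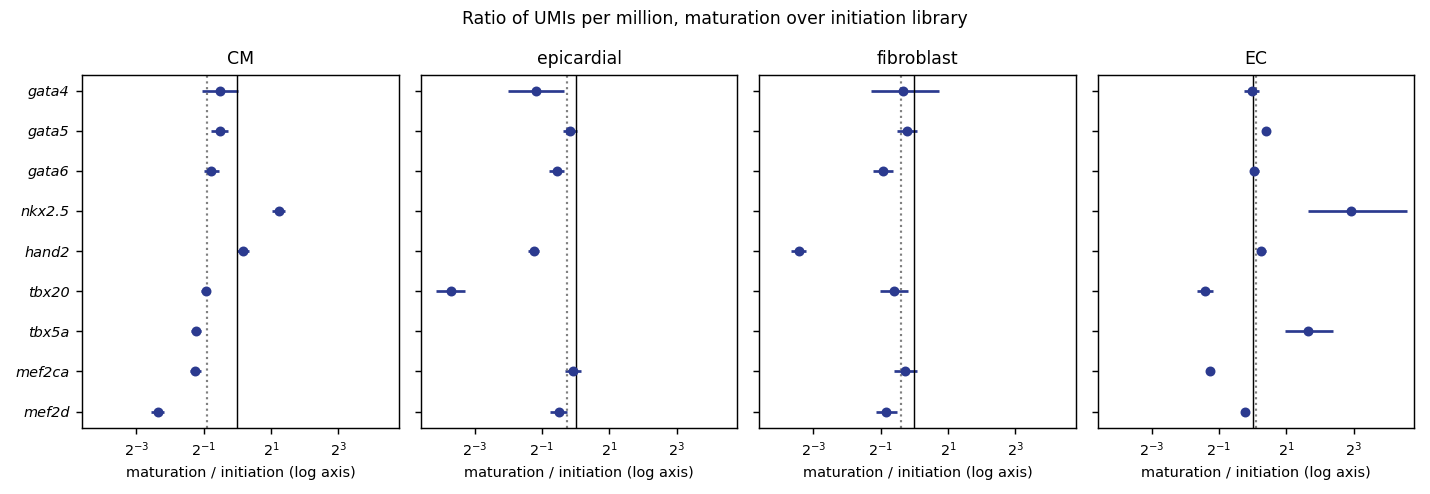
Ratio of the level at maturation to that at initiation (x axis, log scale with base 2) for each factor in CMs, epicardial cells, fibroblast-like cells and ECs. Points are single ratios with exact 95% intervals for counting error, genes with under 50 UMIs in both libraries together are not drawn, the solid line marks equal levels and the dotted line the median gene. In CMs nkx2.5 (2.35) and mef2d (0.194) lie on either side of the median gene, and the lowest ratios are those of tbx20 in epicardial cells (0.0770) and hand2 in fibroblast-like cells (0.0925).

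In epicardial cells tbx20 at 0.0770 (0.0567 to 0.103), hand2 at 0.421 (0.378 to 0.470) and gata4 at 0.444 (0.248 to 0.782) were lower at maturation, the last from 23 and 32 UMIs. With nkx2.5 under 10 UMIs, 8 of the 9 factors could be called, of which 3 were lower and 0 higher. The background was 10.9% lower and 4.97% higher, and the median gene had a ratio of 0.833. With stricter marker limits the ratio of tbx20 was 0.0371.

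In fibroblast-like cells 1 of 9 factors was lower at maturation, hand2 at 0.0925 (0.0791 to 0.108), and 0 were higher, beside 15.8% and 3.7% of all genes. With stricter marker limits the ratio was 0.152. The other factors with at least 50 UMIs had ratios of 0.526 to 0.860, around the median gene at 0.769.

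In ECs tbx20 at 0.376 (0.317 to 0.445) and mef2ca at 0.416 (0.396 to 0.438) were lower at maturation, 2 of 9 beside a background of 15.7%. The tbx20 level at maturation lay under free RNA, and the median gene had a ratio of 1.08. The genes nkx2.5 at 7.59 (3.11 to 24.1) and tbx5a at 3.13 (1.96 to 5.22) were called higher, 2 of 9 beside 15.6%, from levels under free RNA at both stages. With barcodes thinned to 2500 UMIs the ratio of tbx5a was 5.37, and with stricter marker limits that of tbx20 was 0.501, short of the limit. CM markers in ECs also differed, with 6568 CPM at maturation and 902 at initiation. Their part in the nkx2.5 and tbx5a values was not tested. The EC ratios of gata4, gata6, hand2 and mef2d lay between 0.857 and 1.19, and gata5 had 1.31 (1.22 to 1.41).

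CMs were split by myh6, the myosin heavy chain of atrial heart muscle in zebrafish, at 1000 CPM of a barcode. The CMs with myh6 numbered 283 of 1030, 40 of 1965, 41 of 1801 and 14 of 851 from the first stage to the last. They had more tbx20 in the 3 libraries with at least 20 of them, with 266 (248 to 284), 341 (291 to 397) and 502 (427 to 587) CPM from initiation to expansion, against 193 (183 to 202), 155 (151 to 160.1) and 161 (154 to 169) in the other CMs. The ratios were 1.38 (1.27 to 1.50), 2.20 (1.87 to 2.56) and 3.11 (2.63 to 3.66). For tbx5a the ratios were 1.23, 2.19 and 2.54, with 1 outside each interval, and for mef2ca 1.63 (1.48 to 1.78), 2.22 (1.77 to 2.76) and 1.82 (1.41 to 2.31). For mef2d the ratio was under 1 at initiation, 0.751 (0.686 to 0.822), and over 1 at establishment and expansion. Without the CMs with myh6, the maturation to initiation ratio of gata5 in CMs was 0.871, outside its interval of 0.578 to 0.832, while tbx5a was at 0.439, mef2d at 0.172 and nkx2.5 at 2.20.

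The CMs without myh6 were also split by 4 genes that the study names for primordial CMs, a thin layer of the ventricle wall (acta2, hey2, actn1 and smoc1). In these libraries the study also found actn1 and smoc1, with tbx5a, gata6 and mef2d, in a separate group, primordial-trabecular CMs. A split by the 4 genes does not part these groups, and the part of each was not tested. CMs with UMIs of at least 2 of the 4 genes numbered 49, 120, 85 and 17 from initiation to maturation. They were deeper, with medians of 16811, 19169, 11646 and 10237 UMIs, against 10226.5, 14393, 5551 and 4904 in the rest. The level of tbx5a in them was 121 (99.5 to 146) CPM at initiation, against 217 (207 to 227) in the rest. The tbx5a ratios were 0.558 (0.456 to 0.677) at initiation, 0.836 (0.712 to 0.977) at establishment and 0.901 (0.713 to 1.13) at expansion, the last with 1 inside its interval. By contrast hand2 had ratios of 1.71 (1.36 to 2.13), 1.95 (1.63 to 2.31) and 1.78 (1.35 to 2.30), and mef2d of 1.86 (1.66 to 2.07), 1.56 (1.43 to 1.70) and 1.57 (1.34 to 1.83). For nkx2.5 the ratios were 1.15 (0.812 to 1.59), 0.587 (0.458 to 0.742) and 0.645 (0.424 to 0.943). Those of gata6 were 1.67 (1.33 to 2.06), 1.18 (0.971 to 1.43) and 1.55 (1.22 to 1.94). Among CMs of at least 5000 UMIs the tbx5a ratios were 0.547, 0.804 and 0.867.

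**Figure D4:**
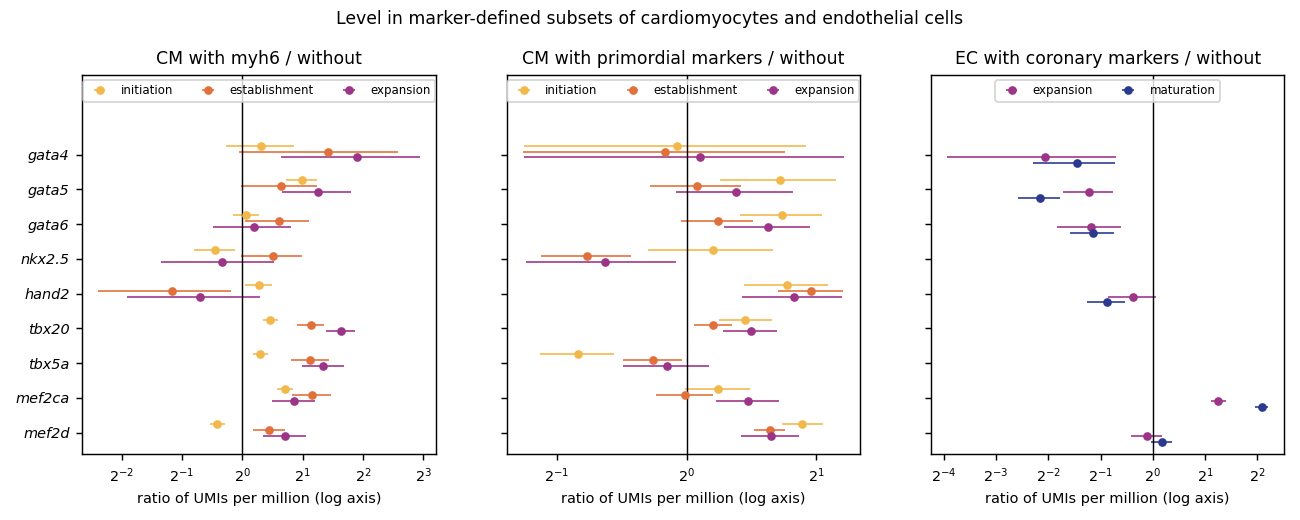
Ratio of levels (x axis, log scale with base 2) in CMs with over without myh6, in CMs without myh6 that have over lack at least 2 primordial markers, and in ECs with over without at least 2 coronary markers. Each point is 1 library with at least 20 barcodes in both subsets, coloured by stage, with an exact 95% interval for counting error. The EC panel leaves out nkx2.5, tbx5a and tbx20, whose levels in all ECs together lie under free RNA at these stages. In ECs with coronary markers alone, tbx20 at expansion was above free RNA (36.3 CPM), and its ratio of 3.25 is not drawn. In the EC panel mef2ca lies at 2.38 and 4.26, while gata4, gata5 and gata6 lie under 0.5. The gata4 and gata5 levels of ECs with coronary markers lay under free RNA at expansion, with intervals that held its level.

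ECs were split by 5 genes that the study picked on these libraries for coronary ECs (tppp3, hpn, ANO7, gig2j and cx34.4). It reports the first 3 as enriched in capillaries and the other 2 as mainly expressed in coronary veins. Arterial and lymphatic coronary ECs may thus be counted among the other ECs. ECs with at least 2 of the 5 genes numbered 17 and 13 at initiation and establishment, 53 at expansion and 166 at maturation. In them mef2ca had 470.2 (426 to 518) CPM at expansion and 375 (349 to 403) at maturation, against 197 (193 to 202) and 88.2 (84.3 to 92.2) in the other ECs. The ratios were 2.38 (2.15 to 2.63) and 4.26 (3.91 to 4.63). The GATA genes ran the other way: gata5 had 26.2 (19.5 to 34.3) CPM at maturation, against 117 (113 to 122) in the other ECs, with ratios of 0.430 (0.305 to 0.589) at expansion and 0.223 (0.166 to 0.293) at maturation. The ratios of gata6 were 0.440 (0.282 to 0.657) and 0.449 (0.333 to 0.595), and those of gata4 0.239 (0.0649 to 0.615) and 0.365 (0.203 to 0.609), the last pair from 4 and 15 UMIs. At expansion the levels in ECs with coronary markers were 44.3 (31.5 to 60.5) CPM for gata5 and 4.54 (1.24 to 11.6) for gata4. Both lay under free RNA, whose level was inside each interval. At maturation the gata5 interval of ECs with coronary markers also held the level of free RNA. For hand2 the ratios were 0.768 (0.550 to 1.05) and 0.541 (0.418 to 0.690), and those of tbx20 3.25 (2.20 to 4.66) and 0.742 (0.408 to 1.25). The tbx20 level in ECs with coronary markers was 36.3 (24.9 to 51.3) CPM at expansion and 7.55 (4.22 to 12.4) at maturation, against 11.2 and 10.2 in the others, with 24.1 and 10.8 in near-empty barcodes. ECs with coronary markers were deeper, with medians of 13913 and 9115 UMIs at expansion and maturation, against 4816.5 and 5266.5 in the others. Among ECs of at least 5000 UMIs the ratios of mef2ca were 2.26 and 3.67 and those of gata5 0.473 and 0.242, with medians of 15449 and 9422 UMIs, against 6824.5 and 6378.

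The patterns over classes and stages were compared by Pearson's r of log2(level + 10) over the 25 class sums with at least 50 barcodes, as a description. These sums share libraries and, within a class, cell type. They include red blood cells, macrophages, thrombocytes and pericyte-like cells, in which gata5 and hand2 were low. The part of these classes in r was not tested. The genes most like tbx5a were nexn (r = 0.99) and txlnba (r = 0.99), and those most like nkx2.5 si:ch211-157b11.14 (r = 0.98) and hspb2 (r = 0.98), with r = 0.94 between tbx5a and nkx2.5 themselves. Those most like tbx20 were si:dkeyp-72g9.4 (r = 0.92) and otud1 (r = 0.91), most like hand2 bms1 (r = 0.92) and adh8b (r = 0.92), most like gata4 rgs12a (r = 0.92) and kank1a (r = 0.92), most like gata5 rasgef1bb (r = 0.96) and si:ch211-156j16.1 (r = 0.95) and most like gata6 klf15 (r = 0.95) and kank2 (r = 0.95). Those most like mef2ca were zbtb38 (r = 0.93) and peak1 (r = 0.92) and most like mef2d rad54l2 (r = 0.87) and tjp1b (r = 0.85). Among the 9 factors, gata5 and gata6 had r = 0.91, gata5 and hand2 0.91 and gata6 and hand2 0.90, while gata5 and nkx2.5 had -0.15. Within a class the stages could still differ. In fibroblast-like cells the ratio of maturation to initiation was 0.0925 for hand2 and 0.860 for gata5.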

How the data were processed

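Ventricles of each stage were pooled, dissociated and run as 1 library with the 10x Genomics Chromium 3' kit v3.1. The values deposited by the authors are raw UMI counts of 36351 genes in all barcodes, made with Cell Ranger against GRCz11 with the Lawson annotation. The submitters' notes give version 6.1.2 and the file headers 7.1.0, and the versions can differ in counting introns. The libraries held 115624753, 123557700, 128056006 and 161798583 UMIs in stage order. The 33503 barcodes kept held 33383 distinct sequences, as some occur in more than 1 library.

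Barcodes with at least 2500 UMIs and 600 genes were classed by a minimum summed marker level (500 to 50000 CPM) and number of markers (3 to 5), set after the marker values were seen. Barcodes of more than 1 class were left out as possible doublets, except where epicardial met fibroblast-like or smooth muscle met pericyte limits. No caller for doublets or correction for free RNA was used. Mitochondrial UMIs were 1.08% to 7.42% of ECs and 8.86% to 12.0% of CMs and were kept in the totals. Levels have exact Poisson and shares exact binomial (Clopper-Pearson) 95% intervals. Ratios have exact conditional binomial intervals.

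Classes with at least 20 barcodes in a library were summed and compared with edgeR 4.0.16 (R 4.3.3), with totals as library sizes, no normalization factors and filterByExpr. The script was tested on simulated data. Alternatives were TMM, DESeq2 1.42.0, other filters, gates and barcode limits, and leaving out each library. Stricter gates and CMs without myh6 for the stage ratios, and deeper barcodes for the subset ratios, were alternatives chosen after seeing the data. Members and lists were chosen with earlier results of these data known. Named besides the 9 factors were the 4 other regulators with the largest fold in each direction and the 2 genes most like each factor. Of 44 regulators, 42 are in the files, as are 90 of 92 class marker entries.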

Additional observations from a re-analysis of the deposited data

Results flagged for a closer look

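The gene tbx5a differed in direction between classes. Its ratio of maturation to initiation was 0.429 in CMs and 3.13 in ECs. With barcodes thinned to 2500 UMIs the EC ratio was 5.37. The difference was not tested, since each stage is 1 library. The EC levels, 5.29 CPM at maturation and 1.69 at initiation, lay under the 9.03 and 14.0 of near-empty barcodes.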

How the results depend on the processing

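The number of genes called kept within 1.5 times of its value in 83 of 88 combinations of comparison and setting. The exceptions were genes higher in CMs than ECs, 2254 in the report, with 3663 by TMM and 3791 by DESeq2, genes lower in CMs, 7078, with 4100 and 4043, and genes higher in smooth muscle cells, 1409, with 2262 without a filter. Of 394 fold changes of the 9 factors under an alternative, 346 kept direction and call, 18 changed direction, 18 lost a call and 12 gained one. The changes of direction were in log2 folds with no call. By TMM and DESeq2, hand2 in CMs over ECs came to 0.70 and 0.74, mef2ca to 0.37 and 0.41, and tbx5a in fibroblast-like cells over ECs to -0.028 and -0.066. With mixed barcodes kept, gata6 in CMs came to -0.015, nkx2.5 and tbx5a in fibroblast-like cells to -0.048 and -0.24, and in smooth muscle cells to 0.26 and 0.47. Without a library term mef2ca in smooth muscle cells came to 0.092. Leaving out 1 library at a time gave -0.10 to 0.17 for gata6 and -0.35 to 0.094 for hand2 in CMs, -0.52 to 0.28 for nkx2.5 in epicardial cells, -0.063 to 0.26 for tbx5a in fibroblast-like cells and -0.98 to 0.054 for mef2ca in smooth muscle cells. The cause of these changes was not tested. Of 1251 levels under an alternative, 1087 stayed within the Poisson interval, and 35 of the 1210 with a fold moved by over 1.5 times. Of 144 stage ratios 124 stayed within their interval, and of 71 subset ratios 70 did. Classes were paired within a library by the library term. Without it the counts of genes called stayed within 1.5 times, and among the factors gata4 and tbx20 in epicardial cells and mef2ca in fibroblast-like cells lost their calls and hand2 in fibroblast-like cells gained one. Stages are single libraries and have no pairs. Levels under or near free RNA limit nkx2.5 and tbx5a outside CMs and tbx20 in ECs. They also limit gata5 in CMs at expansion and maturation, gata4 in CMs at expansion and tbx20 in epicardial cells at establishment and maturation. In ECs with coronary markers they limit gata5 at expansion and maturation and gata4 at expansion. Free RNA levels of gata6, hand2 and mef2ca, and of mef2d at maturation, are not given here, so this list does not cover them. Few UMIs limit gata4 outside CMs and ECs. Red blood cells at expansion held 2 UMIs of gata5 and 0 of gata4 in 137 barcodes, against 491 and 90 in 1801 CMs. At establishment they held 20 UMIs of tbx20 in 1524 barcodes, against 179 in 1932 ECs. The part of free RNA in the CM and EC counts was not tested.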
